A study of Mus musculus with 23 samples.

Results

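CC075F1 tumors are MC38 tumors grown in F1 hosts of the Collaborative Cross line CC075/UncJ, and they were chosen by the host label. They made up 4 of the 23 tumors, 2 given an isotype control antibody and 2 given an antibody against PD-1 (aPD1), and were compared with 8 tumors from hosts of CC001/UncJ and CC002/UncJ (CC001F1 and CC002F1, 4 tumors each, 2 per antibody). All 3 lines were treated as responders to aPD1 in the study's text. The labels do not give that class. All hosts were female F1 mice of C57BL/6J and a Collaborative Cross line, aged 8 to 12 weeks, and shared the same tumor cells. MC38 cells derive from a colon carcinoma of a C57BL/6 mouse and were injected under the skin. Tumors of 75 to 110 mm3 were given a single dose of 200 µg of antibody and taken 48 h later for poly(A) RNA sequencing. The labels number the tumors within a group without saying that each came from a separate animal, so p-values measure the spread between these tumors. Levels are normalized counts, that is estimated reads per gene divided by a size factor for the library's depth.

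The Collaborative Cross is a panel of recombinant inbred mouse lines bred from several founder strains, so each F1 host carries a C57BL/6J copy of the genome beside a mosaic copy. PD-1 is an inhibitory receptor on T cells, and its blockade lets T cells release interferon-gamma and granzymes. Interferon-gamma drives chemokines, guanylate-binding proteins and antigen presentation in macrophages and tumor cells. RNA of a whole tumor mixes tumor, immune and stromal cells, so fewer cells of a type and less RNA per cell cannot be told apart.

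Library totals of the 12 tumors ran from 14494014 to 71868253 counts. The 2 shallowest were CC075F1 aPD1 replicate 2 (14494014) and CC001F1 isotype replicate 2 (17662175). Summed counts of 8 skeletal muscle genes were 26275 in CC001F1 aPD1 replicate 1, 11510.5 in CC001F1 isotype replicate 1, 9687 in CC075F1 aPD1 replicate 1 and at most 1679 in the other tumors. CC075F1 aPD1 replicate 1 also had the highest summed level of the line for T cell genes (4931 against 1983 to 2271) and macrophage genes (235640 against 148167 to 157040). Of the 49 genes called higher in CC075F1, 36 had their highest CC075F1 value in that tumor, and the share over all genes is not given here. The part of that tumor in those results was not tested beyond the values given without it.

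The question of the line comparison was which genes set CC075F1 tumors apart from tumors of the other responder lines, with antibody as a term in the fit. With an adjusted p under 0.05, 76 of 22847 genes were called (0.333%), 49 higher in CC075F1 (0.214%) and 27 lower (0.118%). The largest differences were single genes that were on in some lines and off in others. Beside them stood a chemokine locus, genes of the natural killer gene complex on chromosome 6, and copies of ribosomal and tropomyosin genes. The median log2 difference over all tested genes was -0.004, and 937 genes had an unadjusted p under 0.05. With edgeR 33 genes were called (0.133%), 32 of them among the 76. Against CC001F1 alone 108 genes were called (0.458%) and against CC002F1 alone 153 (0.738%), both with the same CC075F1 tumors, and against all 5 other lines 45 (0.217%). Among isotype tumors alone 82 were called (0.453%) and among aPD1 tumors alone 106 (0.54%). Of the 76 genes, 50 had all 4 CC075F1 tumors on one side of the 8 other tumors. Over all tested genes that share was 0.289% (above) and 0.171% (below). The 76 were called on these same tumors, so a larger share among them was built in. In 22 of the 76, 20 higher and 2 lower, the 4 tumors also lay outside all 19 tumors of the other 5 lines. The share of all tested genes that did so is not given here.

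**Figure D1:**
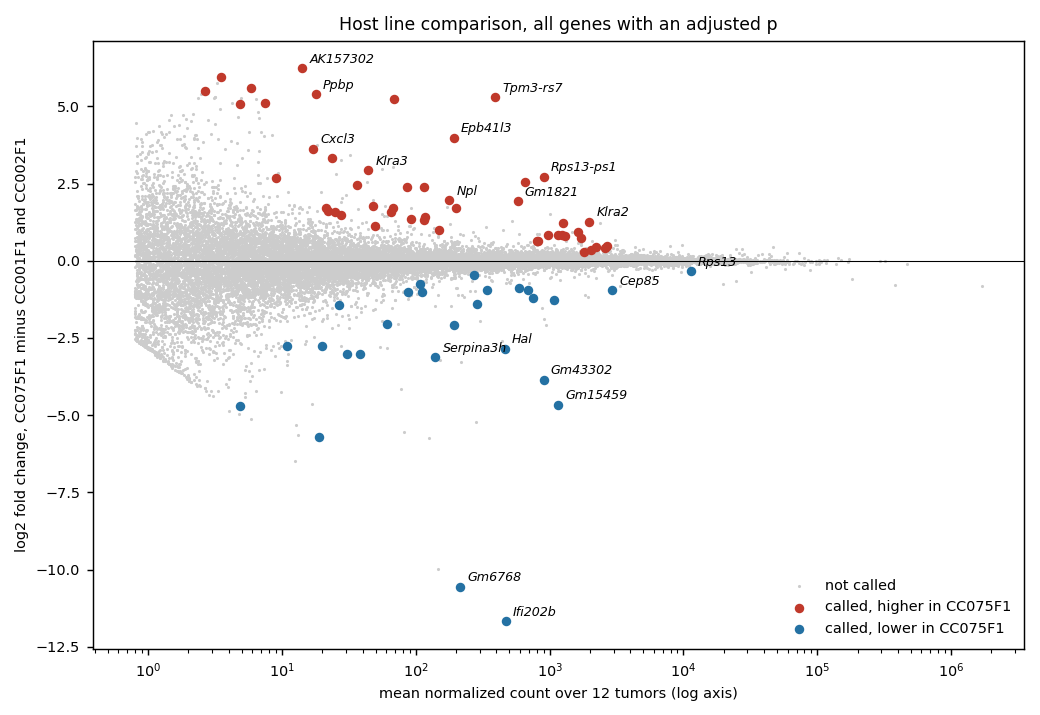
Log2 fold change of CC075F1 against CC001F1 and CC002F1 (y axis) by mean normalized count over the 12 tumors (x axis, log scale) for each of 22847 genes with an adjusted p, with called genes in red (49 higher) and blue (27 lower). Ifi202b at -11.66 and Gm6768 at -10.55 lie far below the other called genes, and most called genes lie within 6 log2 units of 0.

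By the rule for on/off genes, a gene was on with at least 20 normalized counts in every tumor of a side and off with at most 5 in every tumor of the other, at least 10-fold apart. The rule found 4 genes. Ppbp and AK157302 were on in CC075F1 and off in the other lines, and Ifi202b and Gm6768 were off in CC075F1 and on in the other lines.

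Ifi202b (ENSMUSG00000026535, GRCm38 chr1:173962568-173982744) encodes an interferon-inducible member of the Ifi200 family, whose members bind DNA. No read was assigned to it in any of the 4 CC075F1 tumors. The 8 other tumors ranged from 412 to 1489 normalized counts with a median of 625. A floor of 3 counts over the 4 tumors puts the level in CC075F1 at least 935-fold lower, and the gene was called by DESeq2 (adjusted p = 5.7e-25) and by edgeR (adjusted p = 4.57e-06). Among the 11 tumors of CC036F1, CC079F1 and CC080F1 it was at 717 to 2017 in 9. The remaining 2 were CC079F1 tumors at 4.43 and 0, so absence of the transcript was not particular to CC075F1.

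The neighbors of Ifi202b did not share its absence. Mndal, a neighboring Ifi200 gene, was higher in CC075F1 (log2 difference 0.84, SE 0.19, adjusted p = 0.0041). It had 1259 and 1446 in isotype tumors and 2537 and 1239 in aPD1 tumors, against 640 to 1543, median 836, in the others. The ranges overlap, and edgeR did not call Mndal (adjusted p = 0.137). Ifi211 and Ifi203, whose annotated spans overlap that of Mndal, had log2 differences of 0.58 and 0.11 and were not called. Of the 13 measured Ifi200 genes, 1 was called higher and 1 lower. Ifi200 genes are close copies, so reads shared between them were split by the counting and their values are uncertain.

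Gm6768, annotated as a processed pseudogene (GRCm38 chr12:119260978-119262855), likewise had 0 counts in all 4 CC075F1 tumors and 168 to 516, median 312, in the 8 others, at least 423-fold lower by the same floor (adjusted p = 1.59e-20). In the other lines it was at 0 to 5.58 in the 8 tumors of CC036F1 and CC079F1 and at 137, 334 and 497 in those of CC080F1. CC075F1 shared its absence or near absence with those 8 tumors.

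AK157302, a protein-coding gene of unstated function here (GRCm38 chr13:21495223-21497146), was at 25 and 29.4 in the isotype tumors and at 31.5 and 80.3 in the aPD1 tumors of CC075F1. The 8 other tumors did not exceed 1.82 (log2 difference 6.23, SE 0.81, adjusted p = 2.08e-11). CC079F1 tumors had 19.9 to 45 normalized counts and those of CC036F1 and CC080F1 at most 2.03. Olfr465-ps1 and Themis3 had no count in the 8 other tumors but stayed under the limit of 20 in CC075F1. Olfr465-ps1, named as an olfactory receptor pseudogene but protein-coding in the annotation, was at 9.51 to 11.6 (at least 33-fold higher by a floor over the 8 tumors, adjusted p = 0.0015) and Themis3 at 3.46 to 14.3 (at least 25-fold higher, adjusted p = 0.042), and both were at 0 in the 11 remaining tumors too. edgeR called neither (adjusted p = 0.0987 and 0.253).

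The other on gene, Ppbp (GRCm38 chr5:90768518-90770063), belonged to a cluster of called neighbors. A cluster was at least 3 genes called in the same direction, each starting within 500 kb of the one before. Clusters numbered 2, both higher in CC075F1. The chromosome 5 cluster held Ppbp, Cxcl3 and Cxcl2, that is 3 of the 6 tested genes in its span, which are CXC chemokines. Cxcl2 and Cxcl3 attract neutrophils through the receptor Cxcr2, and Ppbp encodes the platelet chemokine precursor of Cxcl7.

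The promoters of these genes are shown because the 3 were called in the same direction. The letters are the C57BL/6J reference of RefSeq on GRCm38.p6, not the CC075 allele, from 250 bases before to 50 after the annotated start, on the gene's strand (all +). Capitals mark matches on either strand to GGGA and TTCC with 2 bases of any kind between them, a form of the NF-kB site whose forward and reverse matches overlap here, and to TATAAA on the gene's strand.
Ppbp, chr5:90768268-90768567: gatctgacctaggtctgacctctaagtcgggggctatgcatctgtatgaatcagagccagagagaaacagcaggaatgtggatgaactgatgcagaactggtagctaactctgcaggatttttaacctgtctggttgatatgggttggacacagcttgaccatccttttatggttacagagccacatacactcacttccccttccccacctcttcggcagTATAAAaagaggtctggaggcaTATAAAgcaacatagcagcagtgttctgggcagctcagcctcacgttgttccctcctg
Cxcl3, chr5:90785851-90786150: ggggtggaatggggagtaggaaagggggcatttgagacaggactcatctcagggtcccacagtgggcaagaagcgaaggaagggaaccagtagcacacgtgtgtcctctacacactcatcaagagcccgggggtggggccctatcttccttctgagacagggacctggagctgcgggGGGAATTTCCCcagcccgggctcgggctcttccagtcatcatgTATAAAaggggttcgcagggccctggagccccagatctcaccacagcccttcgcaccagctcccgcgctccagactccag
Cxcl2, chr5:90903649-90903948: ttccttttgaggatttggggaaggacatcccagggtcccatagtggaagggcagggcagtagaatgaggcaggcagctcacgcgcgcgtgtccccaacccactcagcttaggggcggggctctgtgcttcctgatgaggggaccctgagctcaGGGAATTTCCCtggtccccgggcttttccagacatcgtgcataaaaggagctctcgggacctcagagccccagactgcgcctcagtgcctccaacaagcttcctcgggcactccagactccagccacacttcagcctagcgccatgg
Cxcl3 and Cxcl2 held this NF-kB form, which 1.47% of 32851 RefSeq promoters hold, and so did Cxcl1, which was not called. Ppbp held none. TATAAA, found on the gene's strand in 8.32% of promoters, was at 2 places in Ppbp and at 1 in Cxcl3. GAAA repeated after 2 bases of any kind, a core of the interferon-stimulated response element found on either strand in 3.44% of promoters, was in none of the 3. The motifs were chosen after the members were known.

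Ppbp was at 48.1 and 44.1 in the isotype tumors and 72.5 and 40.1 in the aPD1 tumors of CC075F1. The 8 other tumors had 0 to 3.64, with no overlap (log2 difference 5.38, SE 0.65, adjusted p = 2.49e-13). The tumors of CC036F1, CC079F1 and CC080F1 lay between these groups, at 3.65 to 28.8 with a median of 13.3, below all 4 CC075F1 tumors. Against all 5 other lines the log2 difference was 2.67 and not called (adjusted p = 0.199).

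Cxcl3 had 58.6 and 39.8 normalized counts in the isotype tumors and 51.5 and 28.7 in the aPD1 tumors, against 0 to 8.81, median 2.67, in the 8 others. The groups did not overlap (log2 difference 3.63, SE 0.59, adjusted p = 1.07e-06). Among the remaining lines, CC036F1 and CC079F1 each held tumors above the lowest CC075F1 value, up to 85.2.

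Cxcl2 was at 138, 76.1, 179 and 235 in the same order, against 24.4 to 95.7, median 61.6, so 1 CC075F1 tumor lay within the range of the others. Its log2 difference was 1.34 (SE 0.34, adjusted p = 0.0278). That call was lost with edgeR (adjusted p = 0.342), among isotype tumors (0.801) and aPD1 tumors alone (0.0545) and against CC001F1 alone (0.2). It was also lost without CC075F1 isotype replicate 1 (adjusted p = 0.368), aPD1 replicate 1 (0.159) or aPD1 replicate 2 (0.261), CC001F1 aPD1 replicate 1 (0.0692) or CC002F1 isotype replicate 2 (0.0768), and the cluster with it. The neighbors Cxcl1 and Pf4 gave log2 differences of 0.14 and -0.15 and were not called.

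Of the 14 CXC chemokine genes measured, these 3 were the called ones, and the list's median log2 difference was 0.12. Marker genes of neutrophils, the cells that carry Cxcr2, had a median of 0.37 over 6 measured genes with 0 called. Their summed level was 6241 to 19274 in CC075F1 and 5823 to 16361 in the others.

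**Figure D2:**
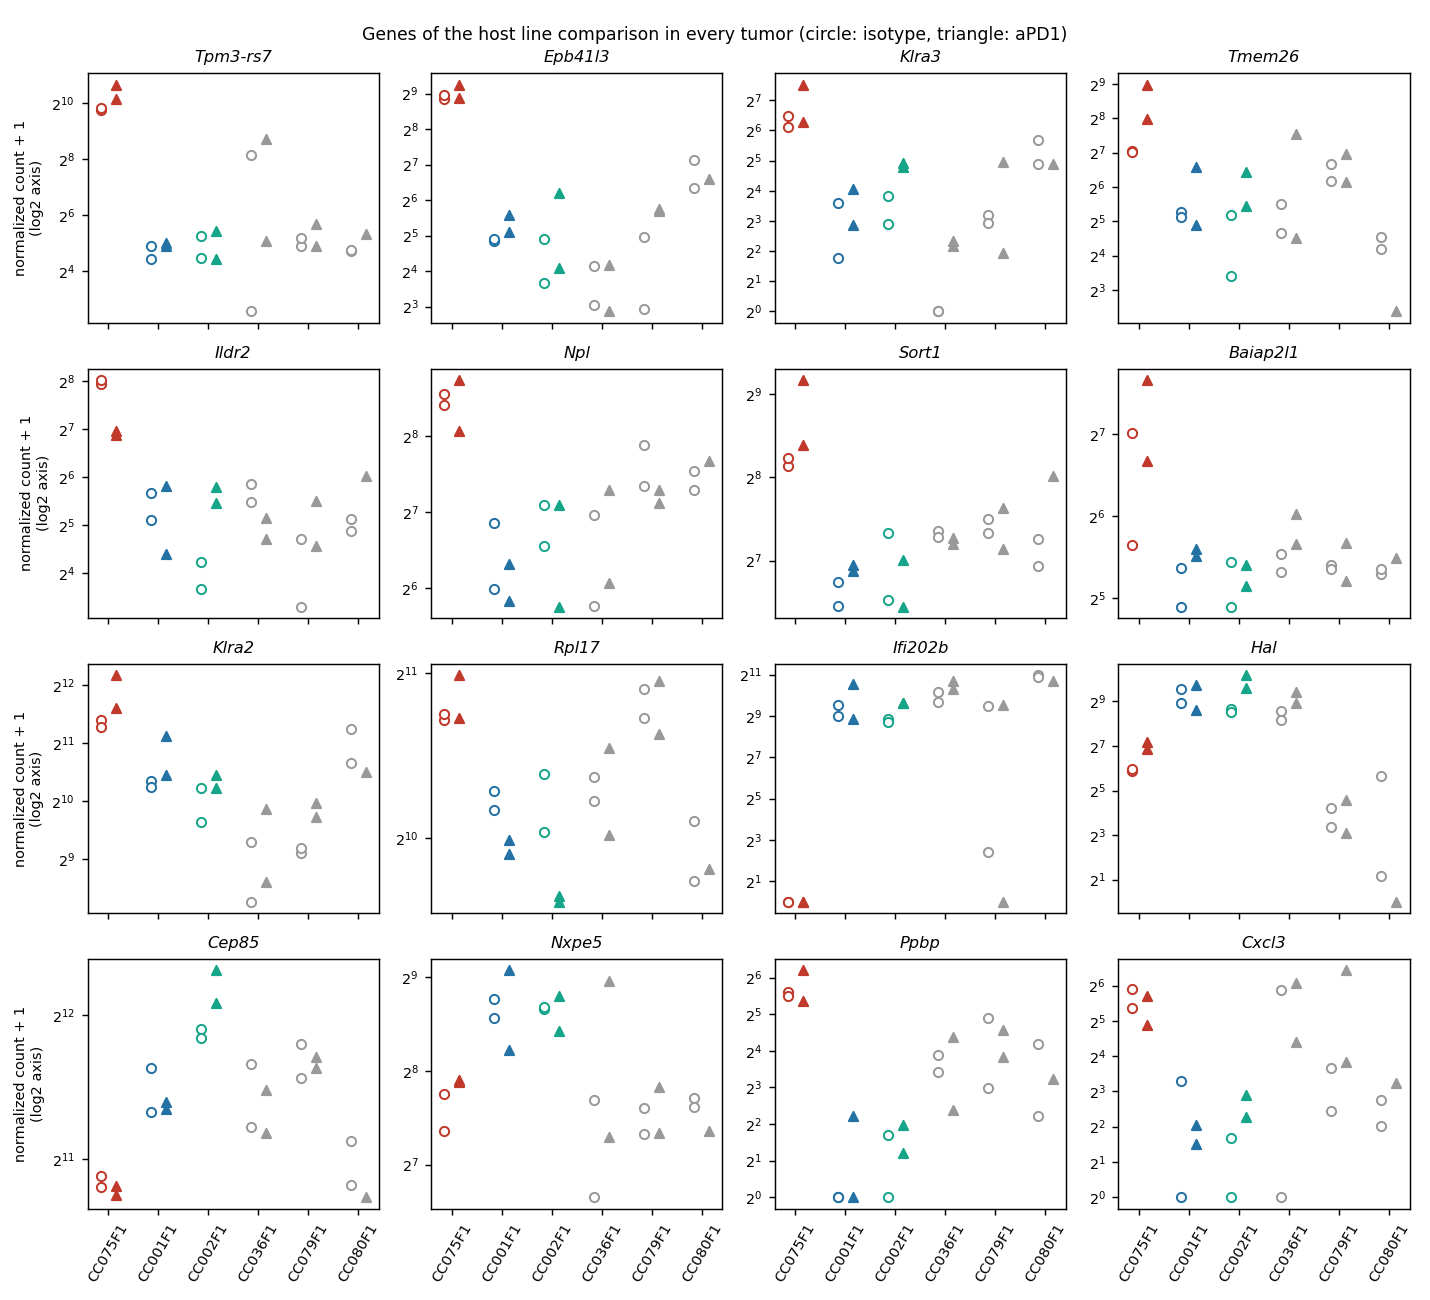
Normalized count plus 1 (y axis, log2 scale) in each of the 23 tumors, by host line (x axis), for the 14 genes the naming rule chose and for Ppbp and Cxcl3. In CC075F1 (red) Ppbp is at 40.1 to 72.5 and Epb41l3 at 456 to 609, above every other tumor, and Ifi202b is at 0 in all 4 tumors as well as in 1 CC079F1 tumor.

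The chromosome 6 cluster held Klrb1, Klrb1c and BC035044, 3 of 10 tested genes in chr6:128705836-128891126, at the start of the natural killer gene complex. This complex encodes C-type lectin-like receptors, many of them of natural killer cells. They include the Klrb1 (NKR-P1) and Klra (Ly49) families. Klrb1 was at 12.5 and 1.73 in isotype tumors and 43.1 and 11.5 in aPD1 tumors of CC075F1, and at 0 in 7 of the 8 others with 1.82 in the remaining tumor (log2 difference 5.60, SE 1.24, adjusted p = 0.0031). Klrb1c, which encodes the NK1.1 antigen, was at 122 and 150 and at 313 and 189, against 38.9 to 125 in the others, which overlap (log2 difference 1.30, SE 0.31, adjusted p = 0.0122). BC035044 was at 49.4, 76.9, 124 and 68.8, against 3.89 to 30 (log2 difference 2.46, SE 0.49, adjusted p = 0.000277).

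Each of these 3 genes was highest in CC075F1 aPD1 replicate 1, and without that tumor none was called (adjusted p = 0.591, 0.384 and 0.0514). Klrb1 also lost its call without isotype replicate 1 (0.163) and Klrb1c without isotype replicate 2 (0.0672). Klrb1 and Klrb1c lost theirs against CC001F1 alone (adjusted p = 0.0505 and 0.315), and also without aPD1 replicate 1 of both CC075F1 and CC001F1, which held muscle RNA (0.635 and 0.51), or without these and CC001F1 isotype replicate 1 (0.802 and 0.419). By edgeR neither Klrb1c (adjusted p = 0.263) nor BC035044 (0.06) was called. Gm44511, whose annotated span overlaps Klrb1c and Klrb1b, was at 35.4 to 194 against 0 to 27.8 and was not called (log2 difference 3.43, adjusted p = 0.416), so reads of these genes cannot be separated with certainty.

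Further along the complex, Klra3 and Klra2 were higher and Klra5 was lower. Klra3 was at 68.5, 87.3, 183 and 77.4 in CC075F1 and at 2.4 to 29.4 elsewhere (log2 difference 2.93, SE 0.42, adjusted p = 3.44e-09). Klra2, another Ly49 gene, was at 2689 and 2487 in isotype tumors and 4629 and 3114 in aPD1 tumors against 793 to 2235, median 1260 (log2 difference 1.26, SE 0.17, adjusted p = 2.14e-10). Both lay above all 19 tumors of the other lines. Klra5 was at 3.95, 3.46, 11.6 and 0 against 10.9 to 113, with overlap (log2 difference -3.02, SE 0.66, adjusted p = 0.00256), and it was not called against CC001F1 alone (log2 difference -1.84) or by edgeR (adjusted p = 0.286).

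From Klrb1 to Klra2, a span set after these values were seen, 58 genes were tested, with 5 called higher, 1 called lower and a median log2 difference of -0.01, where 0.214% (higher) and 0.118% (lower) of all tested genes were called. Of the 11 NK cell markers measured Klrb1c was the 1 called, the list's median was -0.003 (0.14 against CC001F1 and 0.18 against CC002F1), and Ncr1, a defining NK receptor, had 35.6, 69.2, 302 and 135 in CC075F1 against 67.1 to 206 (log2 difference -0.003). Klra genes differ in number between mouse strains and are close copies, so their values are uncertain.

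**Figure D3:**
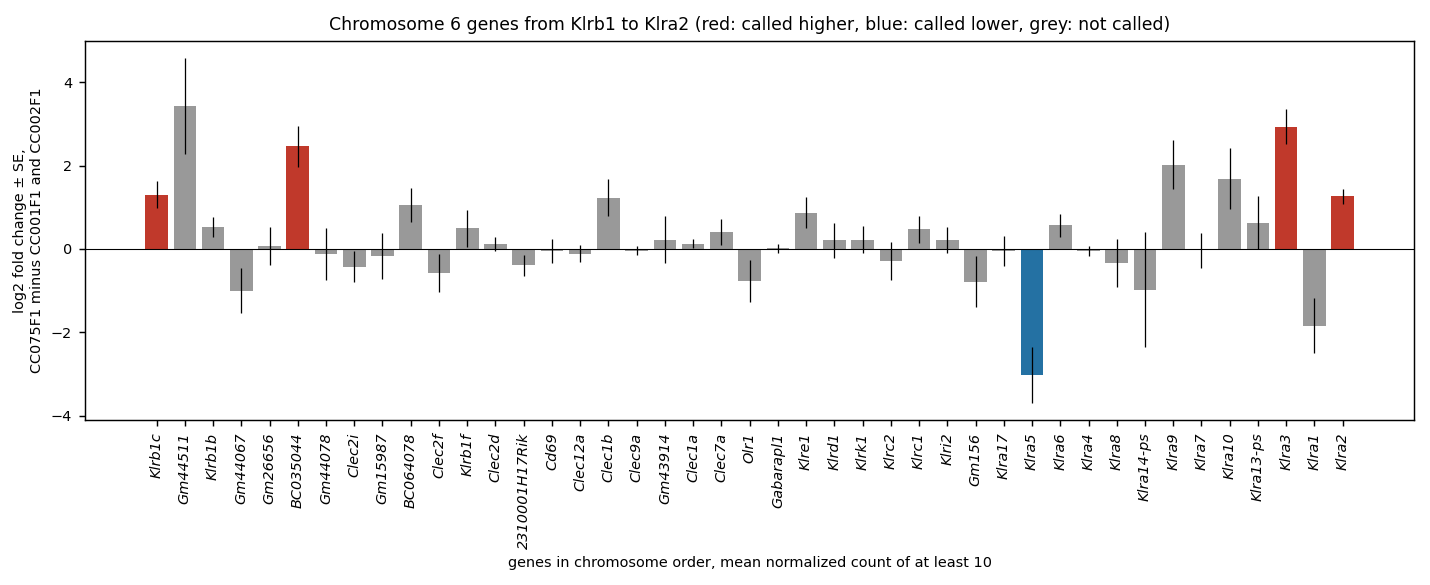
Log2 fold change with its standard error, CC075F1 against CC001F1 and CC002F1 (y axis), for 43 chromosome 6 genes between Klrb1 and Klra2 in chromosome order (x axis), where the mean over the tumors reached 10 normalized counts, which leaves out Klrb1 itself. Red bars at Klrb1c, BC035044, Klra3 and Klra2 and a blue bar at Klra5 stand among genes that were not called (grey).

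The naming rule asked for protein-coding genes with a mean of at least 100 in the higher group, no overlap between the 4 and the 8 tumors, and a call by both DESeq2 and edgeR, and took up to 10 in each direction. It chose 10 higher and 4 lower genes, since no more of the lower genes met it. Beside Klra3, Klra2 and Ifi202b, these were Tpm3-rs7, Epb41l3, Tmem26, Ildr2, Npl, Sort1, Baiap2l1 and Rpl17 (higher) and Hal, Cep85 and Nxpe5 (lower).

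Epb41l3 (GRCm38 chr17:69075683-69289989), a membrane-cytoskeleton adaptor of the protein 4.1 family, was at 456, 499, 609 and 470 in CC075F1. The 8 other tumors were at 11.7 to 73.1 with a median of 28.9, and no tumor of any other line exceeded 139. Its log2 difference was 3.99 (SE 0.32, adjusted p = 4.58e-33) and was 3.91 against CC001F1 and 4.07 against CC002F1, which share the CC075F1 tumors.

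Npl, N-acetylneuraminate pyruvate lyase, which breaks down sialic acid, was at 377, 339, 428 and 267 against 52.8 to 136 (log2 difference 1.96, SE 0.26, adjusted p = 2.14e-10). Sort1, the sorting receptor sortilin, was at 281, 299, 574 and 333 against 86.3 to 160 (log2 difference 1.71, SE 0.22, adjusted p = 7.75e-12). Tmem26, a membrane protein gene, was at 131, 128, 504 and 252 against 9.58 to 94.8 (log2 difference 2.39, SE 0.36, adjusted p = 2.54e-08). All 4 CC075F1 tumors were above the others in each of the 3 genes, and for Npl and Sort1 also above the 11 tumors of CC036F1, CC079F1 and CC080F1.

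Ildr2, an immunoglobulin-like receptor gene, was lower in the aPD1 tumors of CC075F1 than in the isotype tumors. It had 246 and 260 in isotype tumors and 117 and 123 in aPD1 tumors, against 11.7 to 55.3 (log2 difference 2.38, SE 0.40, adjusted p = 2.99e-06), and was not called among aPD1 tumors alone (adjusted p = 0.162). Baiap2l1, an actin regulator, was at 49.4, 128, 101 and 201 against 28.9 to 47.5 (log2 difference 1.57, SE 0.30, adjusted p = 0.000136), and its lowest CC075F1 tumor was just above the highest other tumor. It was not called among isotype tumors alone (adjusted p = 0.499).

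Aoah, Trem3 and Sirpb1c were called higher and Cd5l lower, and they are named here after their values were seen. Aoah, acyloxyacyl hydrolase, which inactivates bacterial lipopolysaccharide, was at 1451, 1265, 3787 and 1807 against 671 to 1354 (log2 difference 1.21, adjusted p = 1.23e-06), with 1 tumor of CC075F1 inside the range of the others. Trem3, a myeloid receptor, was at 75.1, 50.1, 98.7 and 141 against 12.5 to 39.4 (log2 difference 1.76, adjusted p = 0.000277). Sirpb1c was at 1572, 1621, 4146 and 2397 against 700 to 1754 (log2 difference 0.92, adjusted p = 0.0041), with overlap, and edgeR called neither Trem3 nor Sirpb1c (adjusted p = 0.0648 and 0.169). Cd5l, a gene of tissue macrophages, was at 1.32 to 5.73 in CC075F1 and 4.81 to 27.7 in the 8 others (log2 difference -2.77, adjusted p = 0.0484), and edgeR did not call it (adjusted p = 0.492). The 12 macrophage marker genes had a median log2 difference of 0.15 with 0 called.

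Further called genes separated CC075F1 from every other tumor by smaller margins. Gnb4, a G protein beta subunit, was at 2922, 2994, 3270 and 3088 against 2039 to 2683 in the 8 others (log2 difference 0.41, SE 0.08, adjusted p = 4.37e-05). Plxnc1, a semaphorin receptor, was at 942, 1057, 1211 and 989 against 421 to 812 (log2 difference 0.65, SE 0.13, adjusted p = 0.000539). In both genes the 11 remaining tumors also stayed below CC075F1, with maxima of 2631 and 809.

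Pbx4, a homeodomain transcription factor, was at 40.8, 43.2, 104 and 45.9 against 1.06 to 12.5 (log2 difference 3.31, SE 0.46, adjusted p = 1.21e-09), and no tumor of CC036F1, CC079F1 or CC080F1 exceeded 11.6. Chst10, a sulfotransferase gene, was at 35.6, 38.9, 63 and 40.1 against 8.52 to 22.3 (log2 difference 1.57, SE 0.33, adjusted p = 0.00121). Of these 4 genes, edgeR called Gnb4 and Pbx4 and not Plxnc1 (adjusted p = 0.06) or Chst10 (0.0935).

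Ckb and Itga6 were higher too, Itga6 by DESeq2 and not by edgeR (adjusted p = 0.0828). Ckb, the brain-type creatine kinase, was at 1287, 1453, 2677 and 1680 against 683 to 1668, with overlap (log2 difference 0.84, SE 0.17, adjusted p = 0.000243). Itga6, an integrin alpha chain that binds laminin, was at 2999, 3559, 3366 and 3315 against 2056 to 3031, and CC079F1 tumors reached the same level with 3184 to 3702 (log2 difference 0.46, SE 0.10, adjusted p = 0.00262).

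Hal, histidine ammonia-lyase, which starts histidine breakdown, was lower in CC075F1, at 57.3 and 60.5 in isotype tumors and 144 and 115 in aPD1 tumors. The 8 other tumors were at 371 to 1158, median 615 (log2 difference -2.84, SE 0.26, adjusted p = 1.07e-24). CC036F1 tumors resembled those of CC001F1 and CC002F1 at 287 to 683, and CC079F1 and CC080F1 tumors were at 0 to 48.7, below CC075F1.

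Cep85, a centrosomal protein gene, was at 1793, 1888, 1721 and 1798 against 2566 to 5083 (log2 difference -0.96, SE 0.17, adjusted p = 1.19e-05), and the difference was -0.62 against CC001F1 and -1.23 against CC002F1. Nxpe5 was at 214, 163, 238 and 235 against 297 to 537 (log2 difference -0.94, SE 0.16, adjusted p = 9.97e-06). Both had tumors of other lines at like levels, CC080F1 down to 1707 for Cep85 and CC036F1 down to 99.6 for Nxpe5.

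Against all 5 other lines, 10 of the 14 named genes kept their call, and Klra2, Rpl17, Hal and Nxpe5 did not.

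Lower genes outside the rule were chosen after their values were seen. Nanp, a phosphatase of sialic acid synthesis, was at 44.8 and 30.3 in isotype tumors and 4.20 and 5.73 in aPD1 tumors against 26.6 to 135, with overlap (log2 difference -2.05, SE 0.52, adjusted p = 0.0278). Raet1d, which encodes a ligand of the NK receptor NKG2D, was at 206 to 230 against 260.3 to 352 with no overlap (log2 difference -0.47, SE 0.12, adjusted p = 0.0403). edgeR called neither (adjusted p = 0.824 and 0.596). Mcpt1 and Mcpt2, chymases of mucosal mast cells that lie next to each other on chromosome 14, were at 0 to 15.6 and at 44.1 to 80.3 in CC075F1, against 15.5 to 125 and 75.7 to 534 in the others (log2 differences -3.03 and -2.09, adjusted p = 0.00534 and 0.0147). The ranges overlapped for both, and edgeR called neither (adjusted p = 0.556 and 0.212). The 8 mast cell markers, which do not include Mcpt1 or Mcpt2, had a median of -1.01 with 0 called, and their summed level was 312 to 782 in CC075F1 and 466 to 916 in the others.

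Serpina3h on chromosome 12, a member of the Serpina3 protease inhibitor locus annotated as a pseudogene, was at 15.2, 37.2, 16.8 and 17.2 against 83 to 481 (log2 difference -3.12, SE 0.45, adjusted p = 3.64e-09). Its neighbors Serpina3g, Serpina3f and Serpina3n were not called (log2 differences -0.31, 0.52 and -0.84). Gm43302 on chromosome 5 was at 38.9, 32, 1.05 and 381 against 609 to 2373 (log2 difference -3.85, SE 0.86, adjusted p = 0.00351). It overlaps the guanylate-binding genes Gbp10 and Gbp6, whose log2 differences were 0.02 and 0.36 and which were not called, so reads of the 3 cannot be separated with certainty. Against CC001F1 or CC002F1 alone it was not called (adjusted p = 0.175 and 0.172).

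Interferon genes were lower in a few cases. Ifi44 was at 371 and 362 in isotype tumors and 755 and 774 in aPD1 tumors against 579 to 2199 (log2 difference -1.29, SE 0.33, adjusted p = 0.0278), and was -0.86 (adjusted p = 0.195) against CC001F1 and -1.62 (adjusted p = 1.71e-51) against CC002F1. Ifi27l2a was at 319, 314, 595 and 353 against 536 to 1927 (log2 difference -1.20, SE 0.22, adjusted p = 3.25e-05). Both ranges overlap, and edgeR called neither (adjusted p = 0.169 and 0.0558). Of 20 type I interferon response genes, Ifi44 was the 1 called, and the list's median was -0.18. Ifi44l, next to Ifi44, was at 0 in all CC075F1 tumors, at 0 to 1.82 in CC001F1 and at 295 to 584 in CC002F1, so it separated CC002F1 and not CC075F1.

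Several called genes are annotated as pseudogenes or are copies of others, and the counting splits reads shared between near-identical genes. How far that splitting set their values was not tested, and no parent gene was summed with Gm15459 or Gm1821. Gm15459, annotated as a processed pseudogene (GRCm38 chr5:5781615-5783555), was at 58.6, 100.3, 79.8 and 28.7 against 736 to 2639.8 in the 8 others and 198 to 2449.8 in the remaining 11, so CC075F1 was lowest of all lines (log2 difference -4.66, SE 0.36, adjusted p = 3.8e-34). Gm1821, another processed pseudogene, was at 909 to 1711 against 201 to 367 (log2 difference 1.93, SE 0.16, adjusted p = 2.83e-30). Tpm3-rs7, a copy of the tropomyosin gene Tpm3, was at 845, 898, 1603 and 1121 in CC075F1 and at 20.6 to 41.4 in the 8 others (log2 difference 5.29, SE 0.20, adjusted p = 2.72e-149). Tpm3 itself had a log2 difference of 0.04 and was not called. Reads of Tpm3-rs7 were 3.58% to 5.94% of the pair's sum in CC075F1 and 0.0885% to 0.174% in the others, and the sum differed by 0.10 (log2), close to its SD of 0.10 and 0.11 within the groups. Tumors of CC036F1 had 4.86 to 411, so the copy also varied within that line.

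Rps13-ps1, a copy of the ribosomal protein gene Rps13, was at 2000, 1839, 2255 and 2194 against 192 to 407 (log2 difference 2.71, SE 0.20, adjusted p = 9.23e-38). Rps13 was lower at 8819 to 10838 against 11086 to 13314 (log2 difference -0.33, SE 0.07, adjusted p = 0.000243). The sum of both was 11073 to 12837 in CC075F1 and 11492 to 13506 in the others, a log2 difference of -0.09, and the copy held 15.6% to 20.4% of it in CC075F1 and 1.42% to 3.54% in the others. Rpl17 was higher at 1680 to 2033 against 783 to 1344 (log2 difference 0.80, SE 0.13, adjusted p = 2.71e-07). Its copy Rpl17-ps5 was higher too at 21.1 to 377 against 0 to 13.8 (log2 difference 5.24, SE 1.02, adjusted p = 0.000201). The sum of this pair was 0.92 higher (log2), with no overlap between 1702 to 2410 and 790.3 to 1358. CC079F1 tumors had Rpl17 at 1586 to 1984, which overlaps the range of CC075F1.

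The immune makeup was described with 41 lists of marker and pathway genes, 413 distinct genes of which 398 were tested. Of these, 7 were called, 5 higher (Ppbp, Cxcl3, Cxcl2, Klrb1c and Mndal) and 2 lower (Ifi202b and Ifi44), and they fell in 4 lists. Over all tested genes 0.333% were called. T cell genes had a median log2 difference of 0.35 over 11 genes, cytotoxic T cell genes 0.42 over 11 and checkpoint genes 0.30 over 8, with 0 called in each. The summed T cell level was 1983 to 4931 in CC075F1 and 1036 to 3434 in the others, which overlap, and 3 of the 4 CC075F1 tumors lay between 1983 and 2271. Cd8a, a chain of the CD8 coreceptor, was at 689, 729, 1397 and 513 against 261 to 1123 (log2 difference 0.50, SE 0.39).

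Macrophage markers summed to 148167 to 235640 in CC075F1 and 97049 to 187588 in the others, and monocyte markers to 5290 to 8459 against 2936 to 6427 (medians 0.15 and 0.14 over 12 and 8 genes). Dendritic cell lists had medians of 0.14 (cDC1), -0.16 (cDC2), -0.05 (migratory) and -0.17 (plasmacytoid). MHC class I and class II genes had medians of -0.01 and -0.10 over 11 genes each, interferon-gamma response genes 0.07 over 22, CC chemokines -0.08 over 16 and complement -0.01 over 17. A list without a call is not shown to be alike between lines.

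The larger medians were in lists of low or uneven levels. B cell genes had a median of -0.87 over 10 genes, with -0.77 against CC002F1 but 0.18 against CC001F1. Their sum was 986 to 1691 in CC075F1 and 656 to 3790 in the others, the highest being CC002F1 isotype replicate 1, where 5 lymph node genes summed to 742 against at most 66.5 in the other 11 tumors. Skeletal muscle genes had a median of -1.51, but -2.52 against CC001F1 and 2.61 against CC002F1. The 6 tumor cell markers, keratins and Epcam among them, had a median of 1.54, and their sums of 741 to 1612 and 963 to 1713 overlap. Fibroblast genes had a median of 0.07 over 11 genes, with CC075F1 holding both the lowest sum (73227, aPD1 replicate 1) and the highest (237539, isotype replicate 2) of the 12 tumors.

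**Figure D4:**
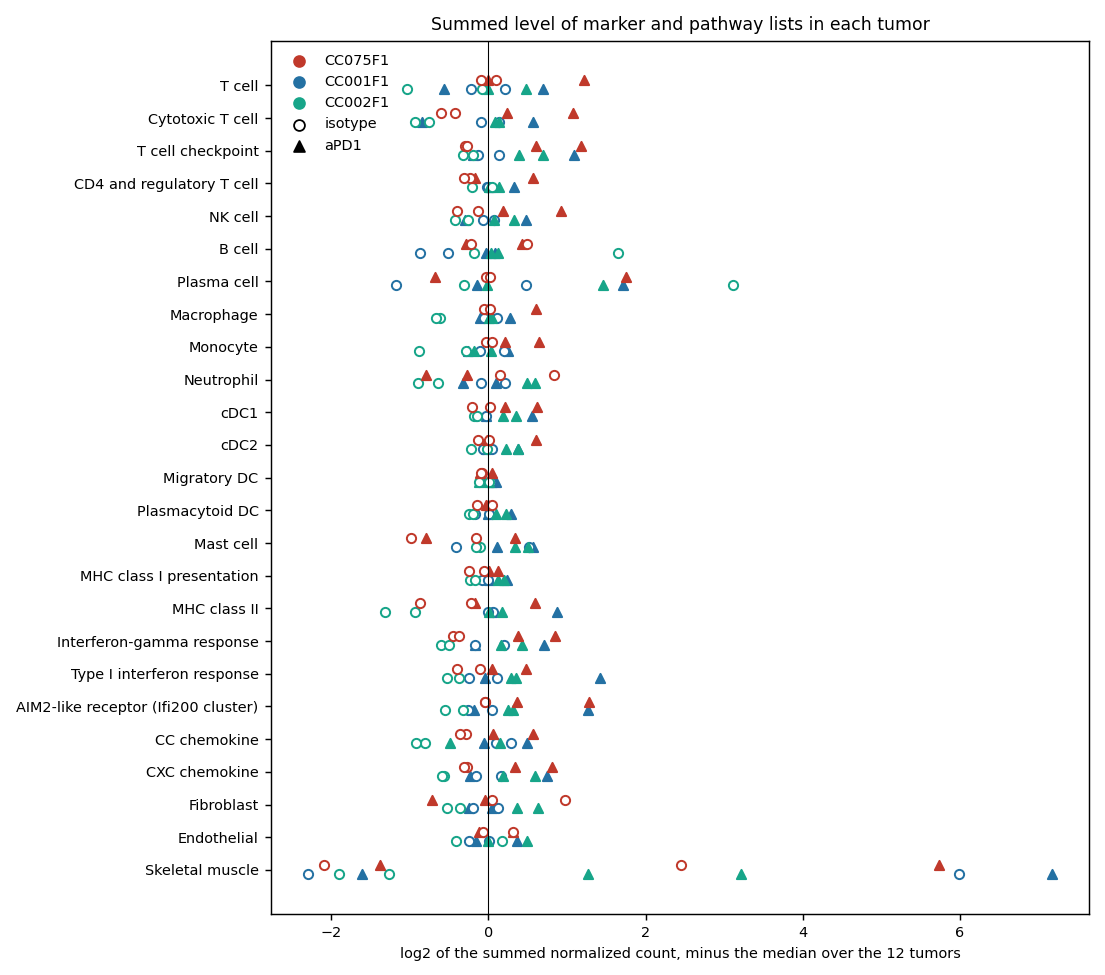
Log2 of the summed normalized count of each gene list minus its median over the 12 tumors (x axis), for 25 lists (y axis), with a point per tumor, open for isotype and filled for aPD1. CC075F1 tumors (red) overlap those of CC001F1 and CC002F1 in every list shown, and aPD1 replicate 1 is the red point farthest to the right for T cell (4931) and macrophage genes (235640).

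Within CC075F1 the antibody comparison addressed what changed 48 h after a dose of aPD1. With 2 against 2 tumors it is a description without a test. A gene was counted as separated where both aPD1 tumors lay on one side of both isotype tumors and the means of log2(normalized count + 1) differed by at least 1. Of 16535 genes with a mean of at least 10, 619 were separated higher with aPD1 (3.74%) and 395 lower (2.39%). The same rule gave 1.7% higher and 1.22% lower in CC001F1 and 4.12% higher and 1.67% lower in CC002F1. The median difference over all genes was -0.008 in CC075F1. Of the 619 genes, 412 were highest in aPD1 replicate 1, the tumor with muscle RNA. Of the 395 genes, 290 were highest in isotype replicate 2, the tumor with the most fibroblast RNA. Under the rule only 2 tumors can be highest in each direction, so a large share in 1 tumor is partly built in.

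By the naming rule (the 8 largest each way among separated protein-coding genes with a mean of at least 100) the genes higher with aPD1 were Inpp5j, Gzmg, Gzmf, Gzme, Ifitm1, Gzmd, Gzma and Gbp2b. Of these, 5 encode granzymes, the serine proteases that cytotoxic lymphocytes release into target cells. Gzmf was at 1845 and 189 in isotype tumors and 6190 and 3573 in aPD1 tumors, a difference of 2.99 (log2). Gzmg was at 1596 and 100.3 and at 4427 and 3034, a difference of 3.19. For both genes the isotype tumors were far apart, and leaving out 1 tumor at a time gave differences of 1.35 to 4.63 for Gzmf and 1.20 to 5.18 for Gzmg.

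Gzmd and Gzme followed, Gzmd at 1387 and 212 in isotype tumors and 4724 and 2736 in aPD1 tumors (2.73) and Gzme at 568 and 68.3 and at 1999 and 1004 (2.84). Their neighbors Gzmc and Gzmb on chromosome 14, which the rule did not choose, differed by 2.20 and 2.32. Gzmb was at 745 and 355 in isotype tumors and 3728 and 1769 in aPD1 tumors. Without isotype replicate 2 the differences were 1.37 for Gzmd and 1.32 for Gzme, and without isotype replicate 1 they were 4.08 and 4.35. Gzma, on chromosome 13, was at 106 and 150 and at 1010 and 453 (2.41).

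The other lines gave other values for these genes. In CC001F1 both aPD1 tumors were below both isotype tumors for Gzmc, Gzmd, Gzme, Gzmf and Gzmg, with differences of -1.51, -1.83, -1.98, -1.85 and -1.98. In CC002F1 both were above for the same genes, by 1.86, 2.01, 2.05, 2.65 and 2.31. Gzma differed by -0.32 in CC001F1 and -0.00 in CC002F1. The difference between lines was not tested.

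Inpp5j, an inositol polyphosphate phosphatase gene, had the largest difference at 3.48, with 23.1 and 28.5 in isotype tumors and 406 and 215 in aPD1 tumors (0.26 in CC001F1, 1.90 in CC002F1). Ifitm1, an interferon-induced membrane protein, was at 139 and 83 and at 1094 and 505 (2.78). Gbp2b, a guanylate-binding protein induced by interferon-gamma, was at 150 and 190 and at 1615 and 499 (2.40), and it was also separated in CC001F1 (2.20) and CC002F1 (1.16). In CC075F1 the isotype levels of Gbp2b were below all 4 CC002F1 tumors, which ran from 1160 to 3209.

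Of the 22 interferon-gamma response genes, 14 were separated higher in CC075F1 and none lower, with a median of 1.13 (0.32 in CC001F1 and 0.84 in CC002F1, where 1 and 9 genes were separated higher). Cxcl9, a chemokine for CXCR3-positive T cells, was at 9145 and 7064 in isotype tumors and 23960 and 15642 in aPD1 tumors (1.27), and Ifng itself at 50.7 and 41.5 and at 321 and 161 (2.28). Ido1, which degrades tryptophan, was at 163 and 87.3 and at 310 and 313 (1.38). Cd274, which encodes the PD-1 ligand PD-L1, was at 1975 and 2121 and at 6512 and 5190 (1.51).

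Ifi200 genes had 8 of 12 separated higher and a median of 1.14, against 0 of 13 in CC001F1 and 2 of 13 in CC002F1. The list's medians in those lines were 0.759 and 0.824, so it was higher with aPD1 there too. In CC075F1, Ifi205 was at 277 and 319 and at 1157 and 743 (1.64), while Ifi202b had no counts under either antibody. Cytotoxic T cell genes had 5 of 11 separated higher (Gzma, Gzmb, Prf1, Ifng and Tbx21), with a median of 1.25. NK genes had 4 of 10 (Ncr1, Klra7, Klrd1 and Klrk1), with a median of 0.95. In CC002F1, 5 of 11 cytotoxic and 7 of 11 NK genes were separated higher (medians 0.95 and 1.09). In CC001F1, 0 of 11 and 0 of 10 were (medians -0.035 and -0.298). In CC075F1, T cell genes had 0 of 11 and a median of 0.49, and Cd8a was at 689 and 729 with isotype and 1397 and 513 with aPD1. Without aPD1 replicate 1 the medians were 0.90 for interferon-gamma response genes, 0.59 for Ifi200 genes, 0.54 for cytotoxic T cell genes, 0.36 for NK genes and -0.17 for T cell genes.

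CC chemokines had 5 of 11 genes separated higher (Ccl3, Ccl4, Ccl6, Ccl7 and Ccl8) and a median of 0.97, and complement genes 4 of 15 and 0.50. Type I interferon response genes had 4 of 20 (Oas3, Oasl1, Irf7 and Ifi44) and a median of 0.60, against 0.83 in CC001F1 and 0.84 in CC002F1. MHC class I genes had 0 of 11 and a median of 0.17, and MHC class II genes 1 of 10, the transactivator Ciita, and a median of 0.74. Macrophage markers had 0 of 12 and a median of 0.31, while 4 of 12 macrophage state genes were separated higher (Arg1, Cd36, Lyve1 and Timd4). In CC001F1 and CC002F1 the medians were -0.05 and 0.73 for CC chemokines and 0.23 and 0.62 for complement. They were 0.155 and 0.335 for MHC class I and 0.401 and 0.865 for MHC class II. Of the MHC class II genes, 0 of 10 and 4 of 11 were separated higher in those lines. Macrophage markers had medians of 0.18 and 0.57 there, and macrophage state genes 0.02 and 0.25. The CC075F1 medians moved with single tumors. Without aPD1 replicate 1 they were 0.25 for MHC class II, 0.54 for CC chemokines, 0.38 for type I interferon response and 0.06 for macrophage genes, and without aPD1 replicate 2 they were 1.15, 1.28, 0.88 and 0.59. Without isotype replicate 1 the MHC class II median was 0.31 and that of MHC class I 0.10, and without isotype replicate 2 that of macrophage state genes went from 0.70 to 0.34.

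The 8 genes the rule chose as lower with aPD1 were Cilp, Crabp2, Islr, Ptgs1, Elfn2, Gpr153, Pknox2 and F3. Cilp, a matrix protein, was at 2053 and 5813 in isotype tumors and 227 and 674 in aPD1 tumors (-3.14). Islr, a secreted protein of mesenchymal cells, was at 604 and 1348 and at 176 and 301 (-1.96), and F3, tissue factor, at 2766 and 6081 and at 995 and 1944 (-1.56). All 8 genes were highest in isotype replicate 2. In CC002F1 both aPD1 tumors were above both isotype tumors for each of the 8, by 0.53 to 2.44. Of the 11 fibroblast genes, Col3a1 was separated lower at 74215 and 168394 against 28530 and 59741 (-1.44), and the list's median was -0.20, which turned to 0.24 without isotype replicate 2 and to 0.02 without aPD1 replicate 1.

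Neutrophil and epithelial markers also held separated genes. Of 5 neutrophil genes, 1 was separated higher (S100a8, 1.305) and 2 lower, with a median of -0.62. Cxcr2, the receptor for the chemokines of the chromosome 5 cluster, was at 40.2 and 31.1 in isotype tumors and 14.7 and 8.60 in aPD1 tumors (-1.57), and Mmp9, a gelatinase, at 11507 and 18672 and at 4339 and 8410.3 (-1.28). Cxcl3 and Ppbp themselves differed by -0.32 and 0.22. Among the 6 tumor cell markers, Krt8, Krt18 and Epcam were separated higher, Epcam at 20.4 and 19 against 51.5 and 51.6 (1.34). Shisal2b, the study's marker of MC38 cells, had a CC075F1 mean of 881. It differed by 0.04 in CC075F1, 0.05 in CC001F1 and -0.19 in CC002F1. The list's median was 1.06 in CC075F1, -1.41 in CC001F1 and -3.16 in CC002F1. Without aPD1 replicate 1, where Krt8 was at 177 against 30.3 to 34.4 in the other CC075F1 tumors, the median was 0.30.

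**Figure D5:**
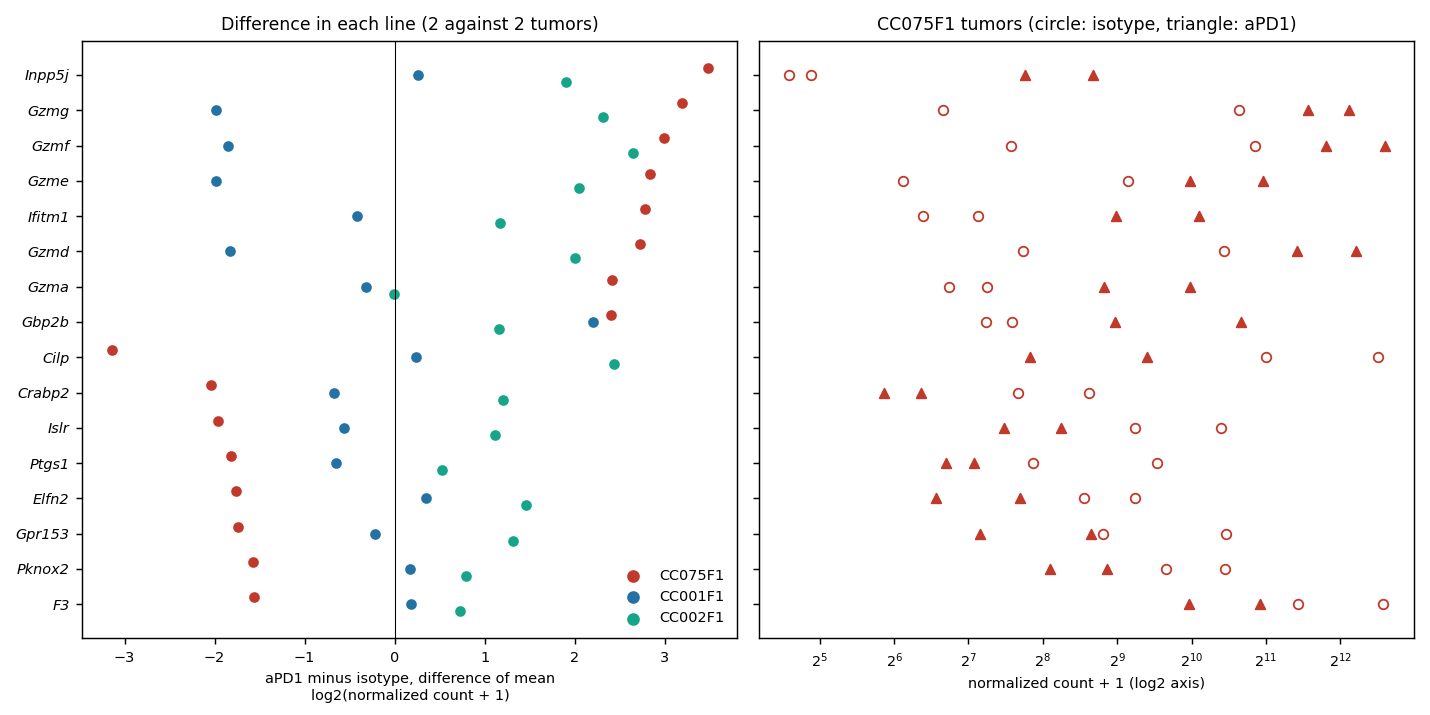
Left, difference of mean log2(normalized count + 1) between aPD1 and isotype tumors (x axis) for the 16 genes the naming rule chose (y axis) in CC075F1, CC001F1 and CC002F1, 2 against 2 tumors in each. Right, the normalized count plus 1 of these genes in the 4 CC075F1 tumors (x axis, log2 scale). Gzmd, Gzme, Gzmf and Gzmg lie at 2.73 to 3.19 in CC075F1 and at -1.98 to -1.83 in CC001F1.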

How the data were processed

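RNA of 23 MC38 tumors was sequenced as poly(A) libraries, 100 bp paired-end. Expected counts per gene were deposited by the authors, who aligned reads with Bowtie 1.2.3 to transcripts of individualized genomes and split shared reads with gbrs, so counts of near-identical genes are estimates. The columns were matched to samples by title, and groups (host line by antibody) come from the labels. Responder class comes from the study's text.

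From the deposited expected counts, 16.95% of which were not whole, rounded values were fitted with DESeq2 1.42.0 in R 4.3.3 (host and antibody as terms, 12 tumors, genes with at least 5 counts summed, Wald test, Benjamini-Hochberg adjusted p under 0.05, two-sided), and with edgeR 4.0.16 (quasi-likelihood) as an alternative. Scripts were tested on simulated data. The antibody comparison within CC075F1 was described without a test. Names and coordinates come from the GENCODE annotation of GRCm38, which matched 26681 of 26869 genes, and the 188 others held 0.099% of counts. Totals were 14494014 to 71868253 counts per tumor, so precision is lowest for low genes in the shallow libraries. Replicates of a group differed beyond sampling noise.

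Genes named for the line comparison were up to 10 per direction, protein-coding, with a mean of at least 100 in the higher group, no overlap and a call by both tools, ordered by fold change. Those named for the antibody were the 8 largest each way among separated protein-coding genes with a mean of at least 100. On/off genes and cluster members were added by their own rules, and other genes were named after their values were seen. The members, lists and tests were chosen with earlier results of these data known. Alternatives were other normalizations, filters, thresholds and pseudocounts, each line or antibody alone, all 5 other lines, a replicate block, and leaving out each tumor, the shallow libraries or the muscle-rich ones. Whether replicate numbers mark pairs is not known. Correlations of deviations between groups ran from -0.271 to 0.235, and with so few tumors per group they cannot exclude pairing.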

Additional observations from a re-analysis of the deposited data

Results flagged for a closer look

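Of 110 groups of tumors looked at, 9 held a tumor far from the others. Distance was the gap to its nearest neighbor as a share of the group's range, where chance gives about 1 in 20. The groups reuse the same tumors and mix both antibodies, so 9 of 110 cannot be read as an excess over that rate. In CC075F1, aPD1 replicate 1 stood above the other 3 tumors for Rpl17 (gap of 0.851 of the range, at 2033) and for the summed T cell (0.851), CD4 and regulatory T cell (0.839) and macrophage genes (0.875). Replicate 2 with aPD1 stood above the others for migratory dendritic cell genes (0.832, at 13879), and isotype replicate 1 below them for non-classical MHC class I genes (0.845, at 71151). Among the 8 tumors of CC001F1 and CC002F1, CC002F1 isotype replicate 1 was high for B cell genes (0.607), CC002F1 isotype replicate 2 low for monocyte genes (0.534) and CC001F1 aPD1 replicate 2 high for type I interferon response genes (0.552, at 99516).

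For 12 named genes, both aPD1 tumors moved away from both isotype tumors in opposite directions in CC075F1 and in another line. The difference between lines was not tested. In CC001F1 the differences (aPD1 minus isotype, log2) were -1.98 for Gzmg, -1.85 for Gzmf, -1.98 for Gzme and -1.83 for Gzmd, where CC075F1 had 2.73 to 3.19. In CC002F1 they were 2.44 for Cilp, 1.20 for Crabp2, 1.11 for Islr, 0.53 for Ptgs1, 1.45 for Elfn2, 1.31 for Gpr153, 0.79 for Pknox2 and 0.72 for F3, where CC075F1 had -3.14 to -1.56.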

How the results depend on the processing

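The 76 calls became 33 with edgeR, 153 against CC002F1 alone, 45 against all 5 other lines and 56 to 86 with 1 tumor left out, and 66 without the 3 muscle-rich libraries, a setting chosen after seeing the data. The 7 called list genes became 3 with edgeR, 12 with line as 3 levels, 26 against CC002F1, 3 against all 5 lines, 11 among aPD1 tumors and 4 to 11 with 1 tumor left out. The 2 clusters became 0 with edgeR, against CC001F1, against all 5 lines, among isotype tumors or without 2 muscle-rich libraries (aPD1 replicate 1 of CC075F1 and of CC001F1), 1 at a mean count of at least 10, without the shallow or the 3 muscle-rich libraries, 5 against CC002F1 and 0 to 3 with 1 tumor left out. The 4 on/off genes became 7 against CC001F1, 7 against CC002F1, 0 against all 5 lines, 8 among aPD1 tumors, 2 at thresholds of 50 and 2, and 4 to 5 with 1 tumor left out.

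The 1014 genes separated by antibody became 425 at a mean of at least 50, 2666 with no filter and 1310 to 1936 with 1 tumor left out, where 1 tumor alone forms a group, and the 82 list genes among them became 50 to 157. With a replicate block, 87 genes were called in the line comparison and 435 were separated by antibody, and the numbers are not known to pair tumors. Median antibody differences that changed sign included those of B cell genes (0.28 at a mean of at least 50), skeletal muscle genes (leaving out 1 tumor gave -1.79 to 5.06, -0.53 without CC075F1 isotype replicate 1 and -1.79 without aPD1 replicate 1) and adipocyte genes (-1.76 to 0.37, 0.37 without isotype replicate 2 and 0.08 without aPD1 replicate 2). With 1 tumor left out the medians of T cell (-0.17 to 1.15), fibroblast (-0.64 to 0.24), mast cell (-0.25 to 1.09), eosinophil (-1.55 to 0.70), endothelial (-0.25 to 0.25), erythroid (-0.23 to 0.35), plasma cell (-0.04 to 1.68), cDC2 (-0.01 to 0.75), migratory dendritic cell (-0.02 to 0.56) and non-classical MHC class I genes (-0.04 to 0.35) also crossed 0. Of the settings tried for single line genes, 531 kept the call and direction, 39 lost the call and 0 changed direction. The causes were not tested. With 4 against 8 tumors and libraries from 14494014 counts, small differences in low genes were not detectable.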

Other observations

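Adamdec1, a metalloprotease gene of macrophages, marked CC001F1 among the 3 responder lines. It was at 192 to 261 in the 4 CC001F1 tumors, at 0 to 13.8 in CC075F1 and at 0 to 3.88 in CC002F1, and it was not called in the comparison of CC075F1 with both lines (log2 difference -4.15, adjusted p = 0.7). Gm3608, annotated as a pseudogene, was graded over the lines, at 1233 to 2076 in CC075F1, 698 to 1103 in CC036F1, 427 to 621 in CC079F1, 317 to 493 in CC002F1, 31.2 to 128 in CC001F1 and 66.0 to 129 in CC080F1 (adjusted p = 0.042 for CC075F1 against CC001F1 and CC002F1).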
